A study of Mus musculus with 3 samples.

Results

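The transcripts of 8 genes that make, use or exchange the coenzyme nicotinamide adenine dinucleotide (NAD) were examined in mouse heart: Nmrk2, Nmrk1, Nampt, Nmnat1, Nmnat3, Sirt1, Sirt3 and Nnt. They were taken by gene symbol from a table that cuts the genes into 469293 exonic parts. The symbols found 7 of the 8 genes, in 121 parts. Nnt has no part under its own symbol: its 22 parts carry a pair of gene IDs, both named Nnt in the GENCODE M21 annotation, and were taken by those IDs. This gave 143 parts.

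The mice were knock-in animals with the I538T change in Rbm20, made by CRISPR/Cas in C57BL/6 zygotes. Per the paper, the founders were crossed with C57BL/6J mice. Rbm20 encodes a splicing regulator of striated muscle, and the change is in the germline, so every cell of the animal carries it. Whole-heart RNA was sequenced at 12 weeks of age from a homozygote, a heterozygote and a wild-type group, with 1 library per genotype. The labels do not say how many hearts or which sex each library holds. Within these data no difference therefore has a replicate check, no test between genotypes was possible, and both mutant genotypes were set against the same single wild-type library. The qRT-PCR measurements of the study, which cover Nmrk2 and some of the markers named at the end, were not used here, so a difference between these libraries is not shown to hold in other animals.

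NAD carries electrons in fuel oxidation, and it is also consumed as a substrate by sirtuins and other enzymes, so cells have to remake it. Most of it is remade from nicotinamide, by NAMPT, into nicotinamide mononucleotide. The nicotinamide riboside kinases NMRK1 and NMRK2 make the same intermediate from nicotinamide riboside, and NMNAT enzymes turn it into NAD. Nmrk1 is broadly expressed, whereas Nmrk2 is largely a muscle gene and is known to be raised in mouse models of dilated cardiomyopathy.

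The libraries held 157990953 inclusion reads in the homozygote, 157178099 in the heterozygote and 149633524 in the wild-type. An inclusion read lies in or reaches into an exonic part, and the level of a gene is given in CPM, the inclusion reads of its parts per 1000000 inclusion reads of the library. The 9 of 10 cardiomyocyte markers in the table were abundant in every library, with Myh6, the adult cardiac myosin heavy chain, at 9864, 9225 and 7602 CPM in the homozygote, heterozygote and wild-type. Other tissues differed between the libraries. Blood markers summed to 107348 CPM in the homozygote and 31995 CPM in the heterozygote, against 86144 CPM in the wild-type. Of 18 small intestine markers, 10 were at 0 in the homozygote and 9 in the heterozygote, but none in the wild-type, where Reg3b, an antimicrobial lectin of gut epithelium, had 12.4 CPM, against 0 in both mutant libraries. Of 12 immune markers with a mean of 1 CPM or more, 12 were lower in the homozygote and 8 in the heterozygote than in the wild-type. Their median log2 ratios were -0.62 and -0.21, against -0.08 and 0.01 over all 12862 genes at that level. Of 8 smooth muscle and pericyte markers, 7 were higher in the homozygote and 8 in the heterozygote than in the wild-type. The median log2 ratios of that list were 0.44 and 0.62. Acta2, the smooth muscle actin, had 58.5 CPM in the homozygote and 84.2 CPM in the heterozygote, against 33.9 CPM in the wild-type. Fewer cells of a type and less RNA per cell cannot be told apart in whole-heart RNA, and the part of these cells in the results below was not tested.

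Nmrk2 was the member that differed most between the genotypes. It had 9.60 CPM in the homozygote, from 1517 reads, with a 95% Poisson interval of 9.12 to 10.1. The heterozygote had 7.005 CPM, from 1101 reads (6.60 to 7.43), and the wild-type 4.41 CPM, from 660 reads (4.08 to 4.76). The homozygote was highest and the wild-type lowest, and the 3 intervals did not overlap. These and all later intervals cover counting error only, and are somewhat too narrow for sums over a gene, because a read that spans several parts is counted in each. The homozygote had 2.18-fold the wild-type level (1.99 to 2.39), and the heterozygote 1.59-fold (1.44 to 1.75). The homozygote had 1.37-fold the heterozygote level (1.27 to 1.48).

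**Figure D1:**
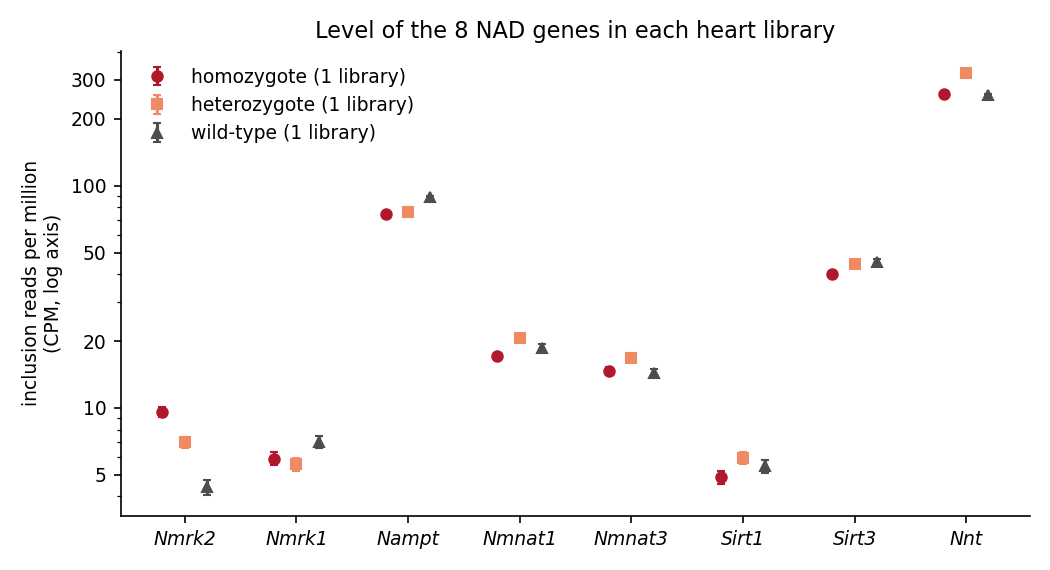
Level of the 8 NAD genes in the homozygote, heterozygote and wild-type libraries, in CPM on a log axis, with 95% Poisson intervals that cover counting error only. Nmrk2 steps down over the genotypes, at 9.60, 7.005 and 4.41 CPM, while the 3 libraries lie close together for the other members.

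On the log2 scale, with 1 CPM added to each value, Nmrk2 was at 0.97 (0.86 to 1.08) in the homozygote over the wild-type. This is just under the size of 1 that was used to call a gene changed, so 0 of 8 members was called higher, against 0.319% of all 12862 genes with a mean of 1 CPM or more, and 0 of 8 was called lower, against 1.3%. Of those genes, 43 lay above Nmrk2. In the heterozygote over the wild-type, Nmrk2 was at 0.57 (0.45 to 0.68), with 186 genes above it. Again 0 of 8 members was called in either direction, against 0.155% of genes called higher and 0.886% called lower. In the homozygote over the heterozygote it was at 0.41 (0.31 to 0.51), with 451 genes above it, and 0 of 8 members was called, against 0.536% higher and 0.435% lower.

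Nmrk2 lies on the minus strand of chromosome 10 (GRCm38 chr10:81198170-81202051) and its 7 exons each form 1 part, so the difference could be followed along the transcript. Exon 1, which holds the start codon, had 71 reads in the homozygote, 55 in the heterozygote and 16 in the wild-type. The fourth exon, all coding, had 241, 163 and 70 reads in the same order. The sixth had 248, 145 and 99 reads. In exons 1 to 6 the homozygote had between 2.37-fold (exon 6, 1.87 to 3.03) and 4.34-fold (exon 3, 2.92 to 6.62) the wild-type level, and the heterozygote between 1.39-fold (exon 6, 1.07 to 1.82) and 3.27-fold (exon 1, 1.85 to 6.12). Every exon was higher in the homozygote than in the heterozygote and higher in the heterozygote than in the wild-type, 7 of 7 in each comparison. None of exons 2 to 6 had a single read that skipped it, in any library. Exons 1 and 7 are the ends of the transcript, so no junction of the gene can skip them.

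The folds over the wild-type tended to fall from the 5′ to the 3′ end. From exon 1 to exon 6 they were 4.20, 3.52, 4.34, 3.26, 3.09 and 2.37 in the homozygote. In the heterozygote they were 3.27, 2.25, 2.89, 2.22, 1.61 and 1.39. The last exon had the lowest fold in both, but in the heterozygote its interval overlapped that of exon 6. It has 1277 bases, of which 83 are coding and the rest 3′ untranslated, and had 471 reads in the homozygote, 449 in the heterozygote and 344 in the wild-type. There the homozygote had 1.30-fold the wild-type level (1.13 to 1.49) and the heterozygote 1.24-fold (1.08 to 1.43). Homozygote and heterozygote did not differ in it beyond counting error (1.04-fold, 0.92 to 1.19). The exon held 31.0% of all Nmrk2 reads (28.7 to 33.4, Clopper-Pearson) in the homozygote, 40.8% (37.9 to 43.8) in the heterozygote and 52.1% (48.2 to 56.0) in the wild-type. The share over the genes with 5 or more parts had a median of 15.2%, 16.1% and 15.5% in the 3 libraries, so genes as a whole showed no such shift. The log2 ratio of the last part less that of the rest of the gene was -1.27 for Nmrk2 in the homozygote over the wild-type. Over 9179 genes, 90% of such values lay between -0.80 and 0.71, and 112 genes (1.22%) were as low as Nmrk2. For the heterozygote over the wild-type the value of Nmrk2 was -0.66, with 481 genes (5.24%) as low, and for the homozygote over the heterozygote -0.61, with 874 genes (9.52%) as low, so both lay within the range of 90% of genes.

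Another gene sits on the end of that exon. Atcayos, on the plus strand, shares 270 bases with it, and its own overlapping part (chr10:81197204-81198439) had 1858 reads in the homozygote, 2165 in the heterozygote and 2179 in the wild-type. The library kit does not mark strand, and whether strand was used in counting is not stated, so reads of the 2 genes cannot be told apart over the shared bases. All 50-base stretches that Nmrk2 shares with other annotated transcripts, 243 of 1805, start in this exon too. Without it, Nmrk2 had 6.62 CPM in the homozygote (1046 reads), 4.15 CPM in the heterozygote (652 reads) and 2.11 CPM in the wild-type (316 reads). The differences were larger on these 6 exons, at 3.14-fold for the homozygote over the wild-type (2.76 to 3.57), 1.96-fold for the heterozygote over the wild-type (1.71 to 2.25) and 1.60-fold for the homozygote over the heterozygote (1.45 to 1.76). The log2 ratios became 1.29, 0.73 and 0.57, the first of them past the size of 1. These values pool exons whose folds over the wild-type were not uniform.

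**Figure D2:**
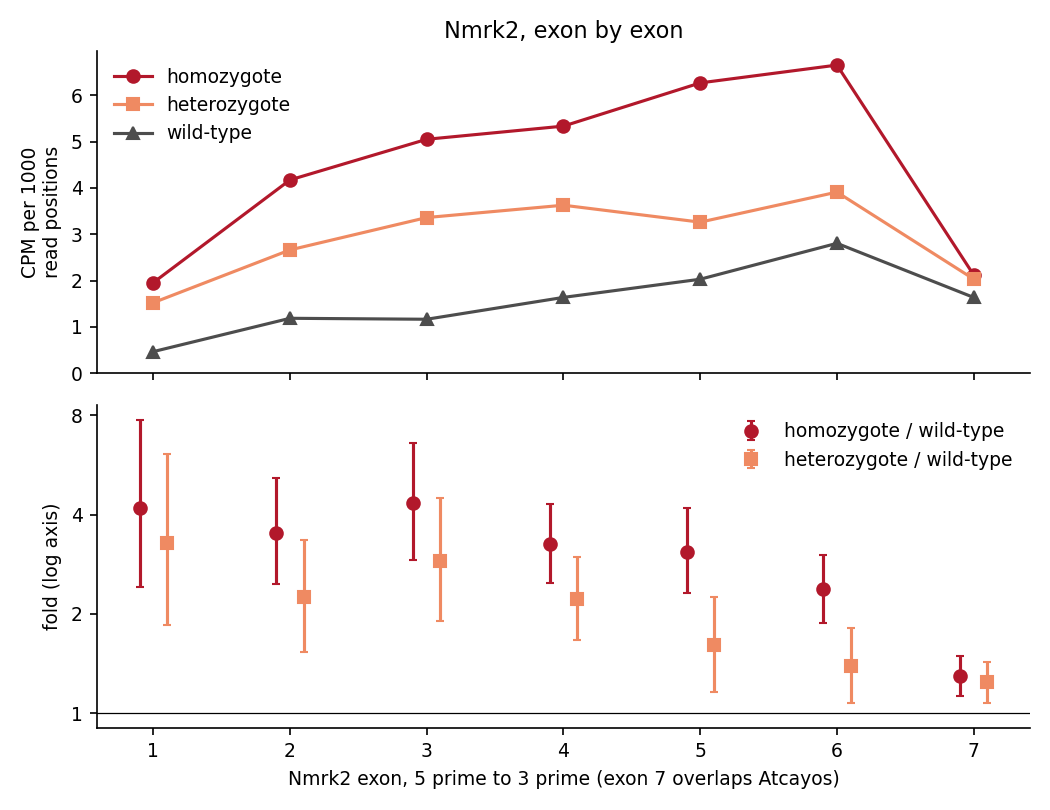
Nmrk2 along its 7 exons. The upper panel gives CPM per 1000 read positions in the homozygote, heterozygote and wild-type libraries, and the lower panel the fold of each mutant library over the wild-type on a log axis, with 95% binomial intervals (counting error only). All points lie above 1, and the folds are smallest in exon 7, which overlaps Atcayos.

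The other kinase, Nmrk1 (chromosome 19, plus strand), did not share this pattern. It had 5.92 CPM in the homozygote (936 reads), 5.59 CPM in the heterozygote (878 reads) and 7.04 CPM in the wild-type (1053 reads), so both mutant libraries were lower than the wild-type. The log2 ratio was -0.22 (-0.33 to -0.10) in the homozygote and -0.29 (-0.40 to -0.17) in the heterozygote over the wild-type, and 4 of 17 parts with enough reads were higher in each. Homozygote and heterozygote overlapped (0.07, -0.04 to 0.19).

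Nampt, the main entry to NAD from nicotinamide, had a similar sign. It had 74.8 CPM in the homozygote, 75.9 CPM in the heterozygote and 88.6 CPM in the wild-type. The homozygote was at 0.84-fold (0.82 to 0.86) and the heterozygote at 0.86-fold (0.84 to 0.88) the wild-type level, with 1 of 15 parts higher in each. The mutant libraries did not differ from each other beyond counting error (0.99-fold, 0.96 to 1.01). Nampt was thus lower in the mutant libraries, in which Nmrk2 was higher, and 3 libraries allow no test of a relation between them.

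The NMNAT genes of the last step were both highest in the heterozygote. NMNAT1 works in the nucleus, and its gene (chromosome 4) had 17.1 CPM in the homozygote, 20.7 CPM in the heterozygote and 18.6 CPM in the wild-type. NMNAT3 is the mitochondrial form, and its gene (chromosome 9) had 14.6, 16.9 and 14.4 CPM in that order. Nmnat1 was at a log2 ratio of -0.12 in the homozygote and 0.15 in the heterozygote over the wild-type, and Nmnat3 at 0.02 and 0.21. In the homozygote over the heterozygote Nmnat1 was at -0.27 (-0.34 to -0.20) and Nmnat3 at -0.19. For Nmnat3 the interval of the homozygote over the wild-type included 0 (-0.06 to 0.10). Marker genes of intestine, liver and blood held 3.21% of inclusion reads in the heterozygote, against 10.7% in the homozygote and 8.63% in the wild-type. With a total that leaves them out, the heterozygote over the wild-type was at 0.07 for Nmnat1 and 0.13 for Nmnat3. The homozygote over the heterozygote was then at -0.16 and -0.08.

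The sirtuins use NAD to remove acetyl and other acyl groups from proteins. Sirt1, the nuclear enzyme, had 770 reads in the homozygote, 935 in the heterozygote and 819 in the wild-type, which is 4.87, 5.95 and 5.47 CPM. Sirt3, the main mitochondrial deacetylase, had 40.1 CPM in the homozygote, 44.3 CPM in the heterozygote and 45.5 CPM in the wild-type. The log2 ratios over the wild-type were -0.14 in the homozygote and 0.10 in the heterozygote for Sirt1, and -0.18 and -0.04 for Sirt3. Sirt3 overlaps the opposite-strand genes Ric8a and Psmd13 in 7 of its 25 parts, and was at -0.21 and -0.04 without those parts.

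Nnt encodes the transhydrogenase of the inner mitochondrial membrane, which makes NADPH at the expense of NADH. It was the most abundant member, with 259 CPM in the homozygote, 322 CPM in the heterozygote and 255 CPM in the wild-type. Here only the heterozygote stood out, at a log2 ratio of 0.33 (0.31 to 0.35) over the wild-type, whereas the homozygote was at 0.02. The heterozygote value was 0.25 with the total that leaves out marker genes of intestine, liver and blood, and 0.25 as the median over parts. Its fold was uneven along the gene, at 0.95 in the first part, 1.03 in part 13 and 1.41 in part 2 near the 3′ end. The C57BL/6J strain lacks several internal exons of Nnt, and GRCm38 was built from that strain. Those exons therefore have no part here. Neither the substrain of the mice nor whether the Nnt transcripts give a working enzyme can be read from the counts. Per the paper, the founder mice were crossed with C57BL/6J mice.

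At a smaller size of 0.58, Nmrk2 was the 1 member called higher in the homozygote over the wild-type and 0 was lower, against 1.3% and 5.48% of genes. In the heterozygote over the wild-type 0 was called, against 1.27% and 3.18%, and in the homozygote over the heterozygote 0, against 1.55% and 3.24%. Set beside all genes, Nmrk2 was the only member above the 95th percentile in the homozygote over the wild-type (range from the 5th to the 95th percentile -0.61 to 0.31), in the heterozygote over the wild-type (-0.47 to 0.38) and in the homozygote over the heterozygote (-0.50 to 0.34). No member lay below the 5th. The other 7 members lay between -0.24 and 0.02 in the first comparison, between -0.29 and 0.33 in the second and between -0.31 and 0.07 in the third, while the medians over all genes were -0.08, 0.01 and -0.10. A counting interval without 0 was common among the members: 2 higher and 5 lower in the homozygote over the wild-type, 4 and 2 in the heterozygote over the wild-type, and 1 and 5 in the homozygote over the heterozygote. It was as common elsewhere, since 21.5% of genes were higher and 50% lower by that rule in the first comparison, 35.8% and 34.7% in the second and 20% and 52.5% in the third.

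**Figure D3:**
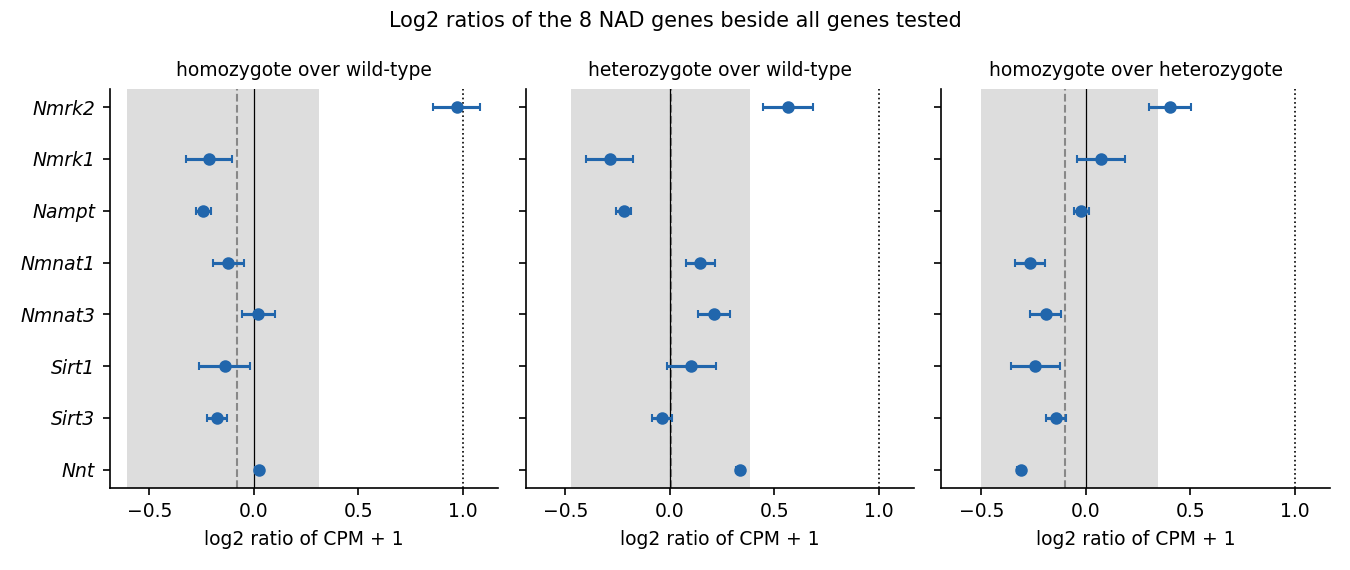
Log2 ratios of CPM + 1 for the 8 members in the 3 comparisons, with 95% counting intervals. The grey band is the range from the 5th to the 95th percentile of 12862 genes, the dashed line their median and the dotted line the size of 1. Nmrk2 lies outside the band in every panel, at 0.97, 0.57 and 0.41, and the other 7 members lie within it.

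Levels of different genes can be compared only per length. The measure used here counts every annotated part, so long parts with few reads lower the level of a gene. In CPM per 1000 read positions over all parts, Nnt led in every library, followed by Nampt, Sirt3 and Nmnat1, and Nmrk1 and Sirt1 came last. Only Nmrk2 and Nmnat3 changed places. In the homozygote, Nmrk2 was at 3.48 (3.31 to 3.66), which overlapped Nmnat1 at 3.52 (3.39 to 3.66) and was above Nmnat3 at 2.07 (1.99 to 2.16). In the heterozygote, Nmrk2 was at 2.54 (2.39 to 2.70) and overlapped Nmnat3 at 2.39 (2.30 to 2.48). In the wild-type, Nmrk2 was at 1.60 (1.48 to 1.73), below Nmnat3 at 2.04 (1.95 to 2.13). Over all parts, Nmrk2 was above Nmrk1 in all 3 libraries, the closest being the wild-type, with Nmrk1 at 1.12 (1.06 to 1.19). That order in the wild-type depended on the parts counted. There Nmrk1 part 8, annotated only as a retained intron of 914 bases, was at 0.30. Parts 10 to 16 of Nmrk1 lay between 1.78 (part 15) and 2.56 (part 12), above Nmrk2 at 1.60. The place of Nmrk2 depended on its last exon. Without that exon it was at 4.90 (4.61 to 5.21) in the homozygote, above Nmnat1 and above Sirt3 at 4.36 (4.25 to 4.47). In the heterozygote it was then at 3.07 (2.84 to 3.32), above Nmnat3, and in the wild-type at 1.56 (1.40 to 1.75), still below Nmnat3. The order against Nmnat3 also depended on the parts counted. In the homozygote, Nmnat3 parts 9 and 10, of 1593 and 791 bases, were at 0.007 and 0. Parts 11 to 14 of Nmnat3 lay between 4.62 (part 14) and 6.63 (part 11) there, above Nmrk2 at 3.48 over all its parts.

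Splicing of the members was compared by percent spliced in (PSI), the share of transcripts that include a part, from inclusion reads and from exclusion reads that skip it, each per number of read positions. A part was called variable where every library had 20 or more reads and at least 1 had a PSI between 5 and 95%. There were 20 such parts: 6 in Sirt3, 5 in Nmrk1, 3 in Nmnat3, 2 each in Nmnat1 and Sirt1, 1 each in Nampt and Nnt, and none in Nmrk2. By a difference of 20 points or more, 2 of them were higher and 0 lower in the homozygote over the wild-type, against 4.5% and 3.83% of all 28732 variable parts. For the heterozygote over the wild-type the same 2 were higher and 0 lower, against 4.74% and 3.7%. Between homozygote and heterozygote 0 differed by that much, against 4.19% higher and 4.45% lower.

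Both parts are pieces of one exon, exon 2 of Sirt1 (chr10:63336980-63337096, minus strand), and share reads. Its 117 coding bases keep the reading frame when they are skipped, and a Sirt1 transcript without the exon (Sirt1-202) is annotated. The sequence is shown from GENCODE M21, with the last 13 bases, which are a part of their own, in capitals:

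Sirt1 exon 2: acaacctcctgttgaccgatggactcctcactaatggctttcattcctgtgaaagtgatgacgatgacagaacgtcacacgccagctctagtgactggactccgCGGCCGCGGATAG

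The longer part, shown in lower case, had 42 inclusion and 4 exclusion reads in the homozygote, 103 and 10 in the heterozygote, and 35 and 17 in the wild-type. Its PSI was 85.3% (67.8 to 95.7) in the homozygote and 85.1% (74.9 to 92.5) in the heterozygote, against 53.3% (38.3 to 68.5) in the wild-type. The exon was thus skipped more in the wild-type library than in the mutant libraries, which lay 0.24 points apart (-18.7 to 14.8). The difference was 32.1 points for the homozygote (8.90 to 50.2) and 31.8 points for the heterozygote (13.5 to 48.5) less the wild-type. Both differences rest on the 17 exclusion reads of the wild-type library, and neither part had 50 reads in all 3 libraries.

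A variable exon of Sirt3 was covered by more reads than that of Sirt1. Exon 5 (chr7:140869489-140869650, minus strand) has 162 coding bases, also a multiple of 3, and Sirt3-203 is annotated without it. It is shown whole, since it is the unit that was skipped:

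Sirt3 exon 5: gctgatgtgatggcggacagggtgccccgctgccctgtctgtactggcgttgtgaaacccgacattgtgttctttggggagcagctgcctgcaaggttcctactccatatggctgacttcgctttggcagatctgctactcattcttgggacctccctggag

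It had 730 inclusion and 73 exclusion reads in the homozygote, 746 and 37 in the heterozygote, and 706 and 31 in the wild-type. The PSI was 81.6% (77.7 to 85.1) in the homozygote and 89.9% (86.5 to 92.8) in the heterozygote, against 91.0% (87.6 to 93.7) in the wild-type. The PSI difference was -9.39 points for the homozygote less the wild-type (-14.2 to -4.49) and -8.34 points for the homozygote less the heterozygote (-13.2 to -3.44), so skipping was more frequent in the homozygote alone, but by less than 20 points. As plain shares of reads, with no correction for length, the differences were smaller, at -4.88 and -4.37 points.

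The Nmnat3 part just outside the size of 20 points has 3 bases (chr9:98354019-98354021, plus strand). They lie at the start of exon 2, in the 5′ untranslated region, where a second acceptor site leaves them out. The junction with exon 1 reads as follows, with the 3 bases in capitals:

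Nmnat3 junction with the 3 bases: agtcagttaaaaCAGggtggccactgc
Nmnat3 junction without the 3 bases: agtcagttaaaaggtggccactgc

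They had 52 inclusion and 50 exclusion reads in the homozygote, 65 and 28 in the heterozygote, and 54 and 23 in the wild-type. The PSI was 50.4% (40.3 to 60.5) in the homozygote and 69.4% (58.9 to 78.6) in the heterozygote, against 69.6% (58.1 to 79.7) in the wild-type. The difference was -19.2 points for the homozygote less the wild-type (-33.4 to -3.90) and -19.0 points for the homozygote less the heterozygote (-32.6 to -4.49). The heterozygote and the wild-type did not differ beyond counting error (-0.24 points, -14.7 to 14.5).

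The remaining variable parts all differed by less than 20 points. An alternative 206-base piece of Nmnat1 (part 10), annotated in 1 of 4 transcripts, was included at 7.15% in the homozygote and 10.5% in the heterozygote, against 20.7% in the wild-type. Exon 3 of Nmrk1 (part 10, 91 coding bases) had 5 exclusion reads in the homozygote, 1 in the heterozygote and 0 in the wild-type, for a PSI of 86.6%, 96.3% and 100%. In the same gene, exon 2 (part 6) had 0, 1 and 6 exclusion reads, for 100%, 96.2% and 84.8%. Over all 20 parts, the interval of the difference left out 0 in 3 parts higher and 7 lower for the homozygote over the wild-type, in 4 and 3 for the heterozygote over the wild-type, and in 0 and 8 for the homozygote over the heterozygote. The share of all variable parts that pass this interval rule was not counted, and some parts share reads. These counts can therefore not be read as particular to the members. Counted over all parts with 20 reads in the pair of libraries compared, 2 of 112 member parts were higher and 0 lower in the homozygote over the wild-type, against 0.768% and 0.664% of all parts. In the heterozygote over the wild-type 2 of 113 were higher and 1 lower, against 0.835% and 0.66%. In the homozygote over the heterozygote 0 of 109 differed, against 0.717% and 0.771%. The 1 further part was in Nmnat3: part 15 of Nmnat3 (chr9:98411392-98411434, 43 bases) had 23 inclusion and 5 exclusion reads in the heterozygote, against 20 and 0 in the wild-type, while the homozygote had 11 and 6. The interval of the heterozygote less the wild-type included 0 in that part (-43.8 to 3.29).

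**Figure D4:**
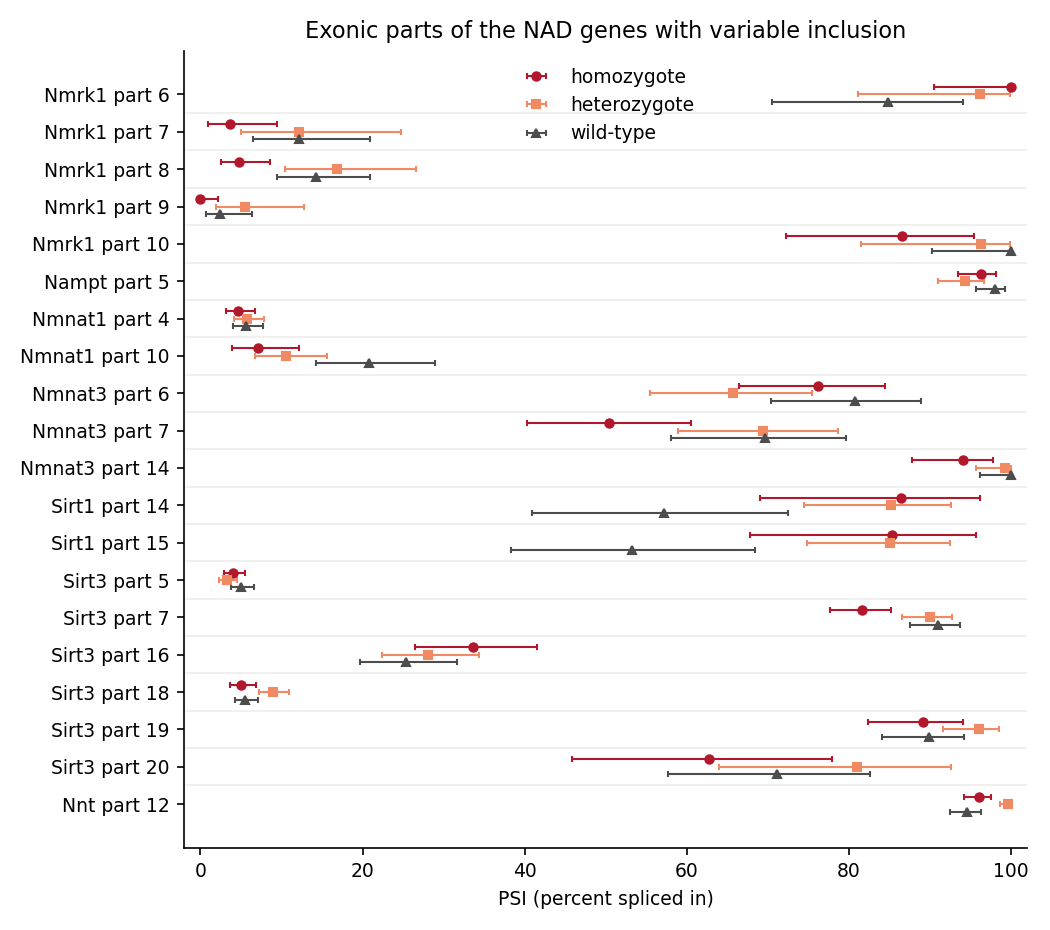
PSI of the 20 variable parts of the NAD genes in the homozygote, heterozygote and wild-type libraries, with 95% Clopper-Pearson intervals carried to the PSI scale. Sirt1 parts 14 and 15, which are exon 2, lie lowest in the wild-type library, and Sirt3 part 7, which is exon 5, and Nmnat3 part 7 lie lowest in the homozygote library.

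The rest of NAD metabolism was read from gene lists. Of 25 other genes of NAD synthesis and salvage, 11 had a mean of 1 CPM or more, and 0 of them passed a log2 ratio of 1 in any comparison. Over all 12862 genes, 0.319% were past 1 and higher and 1.3% lower in the homozygote over the wild-type. The shares were 0.155% and 0.886% in the heterozygote over the wild-type, and 0.536% and 0.435% in the homozygote over the heterozygote. The median of the 11 genes was 0.00 in the homozygote and 0.06 in the heterozygote over the wild-type. Nnmt, which methylates nicotinamide and so withdraws it from salvage, was the highest in both, with 7.24 CPM in the homozygote and 6.55 CPM in the heterozygote, against 4.77 CPM in the wild-type. Nadk2, the mitochondrial NAD kinase, was the lowest, with 47.7 and 46.1 CPM in the homozygote and heterozygote, against 58.7 CPM in the wild-type. Several enzymes of synthesis from tryptophan were near the limit of detection: Qprt, for example, had 0.01 CPM in the homozygote and 0.41 CPM in the heterozygote, against 0.48 CPM in the wild-type.

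Of 26 other NAD consumers, 20 were measured at that level and 0 passed 1. Their median was -0.09 in the homozygote and -0.02 in the heterozygote over the wild-type. Parp8, a mono-ADP-ribosyltransferase, was the highest in both (9.42 and 12.0 CPM in the homozygote and heterozygote, against 7.39 CPM in the wild-type). All 18 genes listed under mitochondrial NADPH and NADH exchange were measured, and 0 passed 1, with medians of -0.06 and 0.06. That list also holds the superoxide dismutase Sod2, the peroxiredoxin Prdx3 and the cytosolic enzymes Got1, Mdh1 and Gpd1. Idh2, the NADP-dependent isocitrate dehydrogenase of mitochondria, had 2128 CPM in the homozygote and 2635 CPM in the heterozygote, against 2283 CPM in the wild-type. Like Nnt, it was highest in the heterozygote in CPM of the full library total. Among coactivators and receptors upstream of mitochondrial genes, 0 of 13 genes of the PGC-1 and PPAR axis were past 1, with medians of -0.03 and -0.02. The counts of 0 in these lists stand beside the small shares over all genes given above. They can therefore not be read as particular to the lists. Ppargc1a, which encodes PGC-1α, had 45.6 CPM in the homozygote and 50.5 CPM in the heterozygote, against 42.3 CPM in the wild-type.

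**Figure D5:**
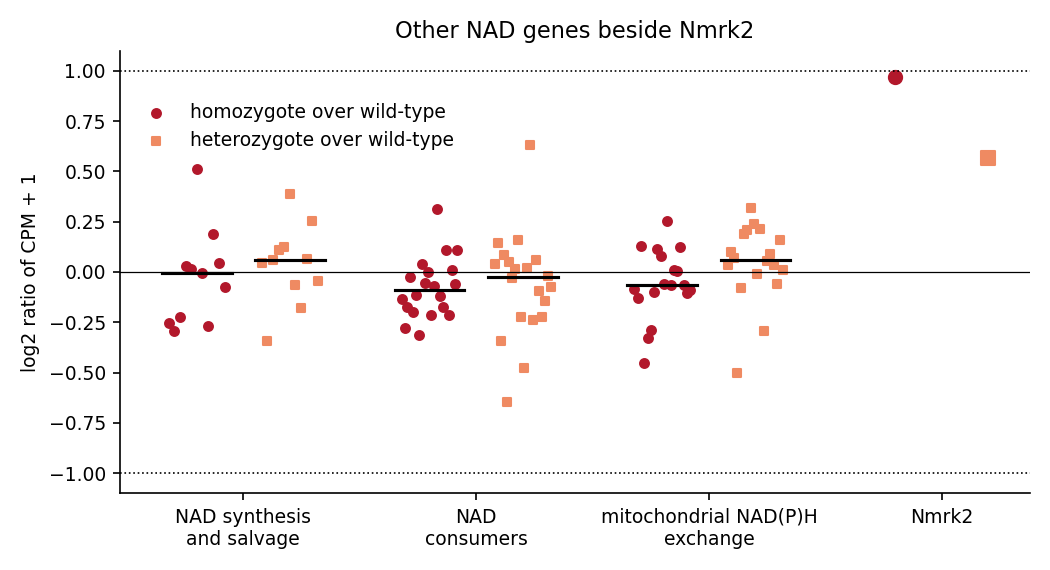
Log2 ratios of CPM + 1 of the homozygote and of the heterozygote over the wild-type, for 11 other genes of NAD synthesis and salvage, 20 NAD consumers and 18 genes listed under mitochondrial NADPH and NADH exchange, with Nmrk2 on the right. Each point is a gene, black bars are medians and dotted lines mark a size of 1 in either direction. None of the listed genes comes as high as Nmrk2 in the homozygote over the wild-type (0.97), whereas in the heterozygote over the wild-type Parp8 (0.63) lies above Nmrk2 (0.57).

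In these 3 lists, 33 genes had 165 variable parts. By 20 points or more, 1 of these parts was higher and 4 lower in the homozygote over the wild-type, 1 and 10 in the heterozygote over the wild-type, and 6 and 1 in the homozygote over the heterozygote, in 8 genes in all. Some parts are pieces of one exon, and the shares of all variable parts past that size are those given above, between 3.7% and 4.74%. The largest difference was in a 4518-base part of Sod2, the mitochondrial superoxide dismutase (chr17:13015617-13020134). It had 391 exclusion reads beside 5717 inclusion reads in the homozygote, 13 beside 5312 in the heterozygote and 0 beside 5781 in the wild-type, for a PSI of 28.9%, 91.9% and 100%. Because of its length, the reads that skip it weigh more than their number in its PSI. Nudt13, a mitochondrial NADH hydrolase, included its part 14 at 55.9% in the homozygote and 30.3% in the heterozygote, against 59.98% in the wild-type. Parp9 part 8 was at 43.5% and 49.2% in the homozygote and heterozygote, against 22.0% in the wild-type. The others were Slc29a1, Nadk, Sirt6, Parp4 and Gpd2.

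The 5 genes closest to Nmrk2 in their pair of log2 ratios over the wild-type, among 6624 genes with a mean of 10 CPM or more, were Cdkn1a, Gm13054, Nppa, Erdr1 and Hsph1. Cdkn1a, the cell cycle inhibitor p21, had 28.1 CPM in the homozygote and 21.1 CPM in the heterozygote, against 14.2 CPM in the wild-type (log2 ratios 0.93 and 0.54). Nppa, the atrial natriuretic peptide gene, had 157 and 126 CPM in the homozygote and heterozygote, against 83.1 CPM in the wild-type (0.91 and 0.60). Gm13054 is antisense to Nppa and overlaps it in the annotation, so the reads of that pair cannot be told apart where they overlap. Hsph1, a heat shock chaperone, had 31.6 and 26.4 CPM, against 16.4 CPM in the wild-type. The likeness rests on 2 ratios that share the wild-type library. Their order over the genotypes follows from how they were chosen.

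Stress genes and markers of skeletal muscle also differed between the libraries. Of 10 genes of heart failure and stress with a mean of 1 CPM or more, 3 (Acta1, Ankrd1 and Nppb) were past a log2 ratio of 1 in the homozygote over the wild-type and 1 (Nppb) in the heterozygote over the wild-type, all higher. Over all 12862 genes, 0.319% were past 1 and higher in the first comparison and 0.155% in the second. The counts of the lists below stand beside the same shares. Nppb, the B-type natriuretic peptide gene, had 470 CPM in the homozygote and 298 CPM in the heterozygote, against 144 CPM in the wild-type. Acta1, the skeletal muscle actin, had 1249 CPM in the homozygote and 181 CPM in the heterozygote, against 145 CPM in the wild-type, and Mybpc2, Casq1 and Myot were likewise past a log2 ratio of 1 in the homozygote alone. Of 17 skeletal muscle markers, only 7 had a mean of 1 CPM or more. These 4 were past 1 in the homozygote over the wild-type, Tnni2 was at 0.21, and the other 2 were lower, Tnnt1 at -0.73 and Mylpf at -0.26. Of 19 clock genes, 1 (Per1) was past 1 in the homozygote and 2 (Per1 and Per2) in the heterozygote over the wild-type, all higher, with medians over the list of -0.05 and 0.08. Per1 had 7.79 CPM in the homozygote and 9.87 CPM in the heterozygote, against 3.35 CPM in the wild-type. Nampt is itself known as a clock-controlled gene in mouse tissues. The time of day of collection is not given in the labels, and the part of these differences in the values of Nmrk2 and Nampt was not tested.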

How the data were processed

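Per the labels, total RNA from mouse hearts was made into libraries with SMART-seq v4 and Nextera XT kits and sequenced on a NovaSeq instrument. The submitters' processing notes name cutadapt 1.1, Trimmomatic 0.32, TopHat2 2.0.14, Bowtie 1.1.1 and GRCm38; the annotation release and the counting program are not given in the sources used here. The authors deposited raw inclusion and exclusion read counts per exonic part, not normalized, and PSI as a fraction. PSI recomputed from the counts, with 129 read positions for a junction, differed by at most 5e-05 points. Of the other columns, 3 with PSI at 36 weeks match no sample and 2 hold the authors' own PSI differences; none was used.

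Inclusion counts were summed over parts of 1 gene and scaled to the library total (CPM). Log2 ratios used a pseudocount of 1 CPM. A gene was called at an absolute log2 ratio of 1 with a mean of 1 CPM, a part at 20 PSI points with 20 reads in both libraries. Intervals (95%) are exact Poisson, binomial or Clopper-Pearson. Parts shared between genes (40250) were left out, except for Nnt. Levels per length divide reads by part length plus 129. Named genes were all members, list genes past the sizes above (examples named) and the 5 nearest to Nmrk2 by Euclidean distance of both log2 ratios. The members and 17 gene lists were chosen with earlier results of these data known. Annotation and sequences are from GENCODE M21 (GRCm38). Analyses used Python 3.11.15, numpy 2.4.6, pandas 2.3.3, scipy 1.17.1 and matplotlib 3.10.9, and the code was tested on simulated data. Alternatives were other scalings, pseudocounts, filters, sizes and part sets.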

Additional observations from a re-analysis of the deposited data

How the results depend on the processing

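No paired analysis was possible because each genotype has 1 library and the labels give no replicate numbers. Nmrk2 kept its sign under all 10 alternatives in each comparison, but not all of these were separate checks. Keeping only parts of high PSI and including parts shared between genes left its value as it was. Leaving out the part at the 3′ end and leaving out parts on another gene were the same change. In the homozygote over the wild-type its log2 ratio was 1.105 with a pseudocount of 0.1 CPM, 1.68 as the median over parts, 1.45 per read position and 1.29 without its last exon, which is also its only part on another gene. The heterozygote over the wild-type gave 1.13 as the median over parts, 0.84 per read position and 0.73 without the last exon. The homozygote over the heterozygote gave 0.58, 0.61 and 0.57 under the same changes, 0.51 without the 20 genes with most reads and 0.51 without marker genes of intestine, liver and blood; this total and the removal of the last exon chosen after seeing the data. The members called higher were therefore 1 of 8, Nmrk2, and not 0 in the homozygote over the wild-type with that pseudocount, with median-of-ratios size factors, without the 20 top genes, at a size of 0.58, over parts and without the last exon, and 1 in the heterozygote over the wild-type over parts. For the other 7 members, 7 of 192 values changed sign and the furthest from 0 was 0.48 in size.

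Member parts past the PSI size at 10 points were 4 higher and 3 lower in the homozygote over the wild-type. They were 3 higher and 3 lower in the heterozygote over the wild-type, and 1 higher and 3 lower in the homozygote over the heterozygote. Over all parts, 3744 of 182258 were higher and 3686 lower at 10 points in the first of these comparisons. In the second 4220 of 184413 were higher and 3788 lower, and in the third 3617 of 182375 were higher and 4089 lower. At 50 reads the member parts that were higher were 0, 1 and 0, the 1 being Sirt1 exon 2 in the heterozygote over the wild-type, and 0 were lower. At 10 reads 1 was lower in the homozygote over the wild-type. Without length normalization 3 were lower in the homozygote over the wild-type and 2 in the homozygote over the heterozygote. The counts over all genes moved more: genes called higher in the homozygote over the wild-type were 14 with a mean of 10 CPM or more and 82 with a pseudocount of 0.1 CPM, against 41. With 1 library per genotype, differences between animals, dissections and libraries cannot be told apart from genotype, and the causes of the shifts above were not tested.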
